A study of Caenorhabditis elegans with 9 samples.

Results

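Cuticle collagen genes were followed in whole Caenorhabditis elegans kept with graphene oxide or with an amino-functionalised form of it. The members were taken by name: every gene whose symbol is col- followed by a number, with dpy-7, dpy-13, dpy-17, rol-6, sqt-1, sqt-3, bli-1 and bli-2. They came to 164 of 46284 gene IDs, of which 156 were col genes and 8 carried another name. A member was called expressed at 1 FPKM or more in at least 3 of the 9 libraries, where FPKM are fragment counts divided by gene length and library size. By this rule 70 members were expressed and 94 were not, and 6 of those 94 were listed at 0 in every library.

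The cuticle is the outer skeleton of the worm, laid down by the hypodermis beneath it and made anew at each molt. Its collagens are short proteins with Gly-X-Y repeats that are hydroxylated, assembled in threes, trimmed by proteases and cross-linked outside the cell. Many are made only in certain molts or within a short window of a molt, and loss of single members makes animals short and fat (Dpy), rolling (Rol) or blistered (Bli).

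The 9 libraries came from N2 (wild type) animals, 3 with graphene oxide (GO, carbon sheets bearing oxygen groups), 3 with amino-functionalised graphene oxide (GONH2) and 3 mock-treated (control). Each held RNA of 500 whole animals after 12 h in liquid culture. The labels do not state the stage or age of the animals, the dose, or whether replicates were grown apart, and p-values therefore cover only the spread between these samples, which may be technical. In whole animals, fewer cells or animals making a collagen and less RNA per cell cannot be told apart.

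Summed FPKM ranged from 955606 to 1010900 per library, and 12849 genes were tested. Of the yolk genes of adult hermaphrodites, 5 of 6 were expressed in all libraries, and their sum was 7849 to 8371 FPKM with GO, 8099 to 8636 with GONH2 and 8585 to 8946 in controls; vit-2 was listed at 0 throughout. The 5 markers of the hypodermis other than collagens that were found, of 6 listed, summed to 112.4 to 130.8 FPKM with GO, 112.3 to 137.5 with GONH2 and 107.4 to 137.0 in controls. Between treated and control libraries, 2 of 4 intestinal markers rose with GO (asp-1 and ges-1) and 1 of 4 with GONH2 (asp-1), and 2 of 6 yolk genes fell with GO (vit-5 and vit-3; limma, adjusted p = 0.00025 to 0.0207). The intestinal markers summed to 1827 to 1840 FPKM with GO, 1679 to 1775 with GONH2 and 1319 to 1384 in controls. The part of these markers in the collagen values was not tested.

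The expressed members separated by level into 23 abundant genes (mean over the 9 libraries of 298 to 3283 FPKM), 15 intermediate genes (10.7 to 82.6 FPKM) and 32 low genes (0.811 to 9.37 FPKM). No expressed member had a mean between 82.6 and 298 FPKM, so the abundant genes stood as a separate block. All members together made up 2.78 ± 0.132% of summed FPKM with GO, 2.87 ± 0.0730% with GONH2 and 3.02 ± 0.0537% in controls (SD, n = 3 each). The 5 most abundant members, col-119, col-122, col-140, col-181 and col-20, held between 45.2% and 47.5% of the members' FPKM in every library.

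The gene with the highest level was col-119 (chromosome IV, 8978926 to 8979795, WBcel235). It had 2916, 3179 and 3418 FPKM with GO, 3267, 3263 and 3241 FPKM with GONH2, and 3238, 3536 and 3487 FPKM in controls. The groups overlapped, and GO replicate 1 was the lowest library. Next in mean level came col-122 at 2890 FPKM, col-140 at 2851, col-181 at 2261, col-20 at 1874, col-184 at 1424, col-106 at 1407 and col-8 at 1329. Then followed col-178 at 1298 FPKM, col-101 at 1214, col-143 at 1134, col-124 at 1133, col-80 at 910 and col-93 at 845. Of these neighbours in rank, col-122 and col-140 differed by less than the SD of either gene in each group, as did col-143 and col-124.

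**Figure D1:**
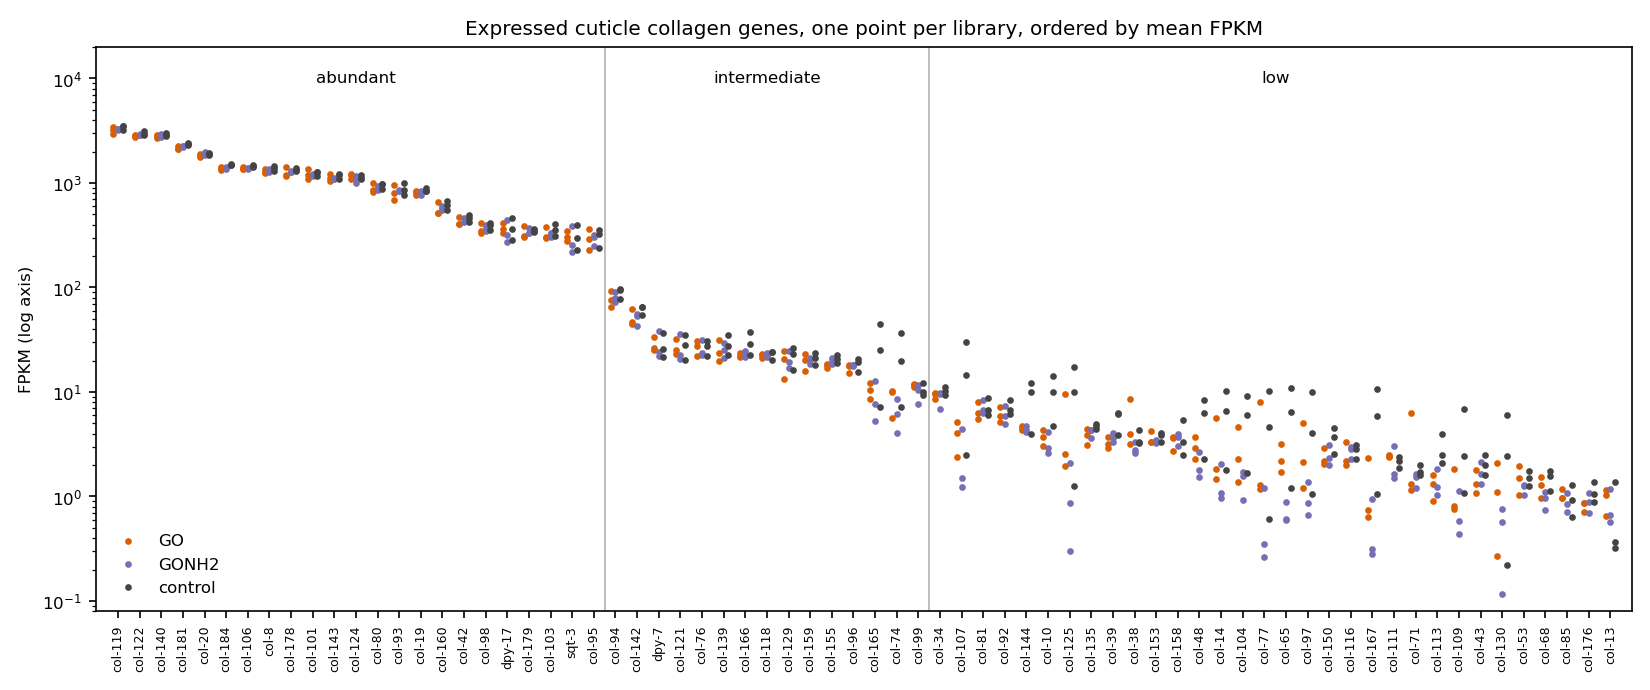
FPKM on a log axis of the 70 expressed cuticle collagen genes, ordered by mean level, with 1 point per library (GO left, GONH2 middle, control right within each gene) and vertical lines between the abundant, intermediate and low classes. Most abundant genes, at means of 298 FPKM and above, have points that nearly coincide, with dpy-17, sqt-3 and col-95 wider. Some low genes, such as col-107 and col-125, spread over more than 10-fold between libraries.

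Members linked to the adult cuticle did not share a level. The adult collagen col-19 (chromosome X, 421707 to 422691), a standard marker of the adult hypodermis, was abundant, with 818, 761 and 837 FPKM with GO, 800, 839 and 767 FPKM with GONH2, and 831, 846 and 887 FPKM in controls. Its groups overlapped. The other adult-linked members were near 0: col-62 had 0.508 to 1.11 FPKM, and col-7, rol-6, bli-1 and bli-2 stayed below 0.4 FPKM in every library. BLI-1 and BLI-2 build the struts of the adult cuticle, and ROL-6 acts with SQT-1 in the form of the body. The gene sqt-1 was listed at 0 in all libraries except GO replicate 1, at 0.177 FPKM. Of 6 adult-linked members col-19 was the only one in the abundant class, which is therefore named here by its level and not by a stage.

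Among the members first known from mutants, dpy-17 and sqt-3 were abundant. Their products depend on the protease DPY-31 for processing. The furrow collagen dpy-7, which lines the circumferential furrows of the cuticle, was intermediate at a mean of 28.2 FPKM. The gene dpy-13 had 5.84 FPKM in GO replicate 1 and 0.0607 to 0.671 FPKM in the other 8 libraries, so it did not count as expressed.

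At the edge of the expression rule, col-85 and col-176 reached 1 FPKM in exactly 3 libraries, with means of 0.957 and 0.932 FPKM. Just outside, col-147, col-89, col-62, col-180, col-168 and col-115 reached it in exactly 2, with means between 0.508 and 1.56 FPKM. A member high in a single group could pass through that group alone, so counts over the 70 are not counts over all members.

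Expressed members were spread unevenly over the chromosomes. Chromosome IV held 42 members, of which 21 were expressed, and chromosome V held 32, of which 16 were expressed. Chromosome III had 9 expressed of 13 members and 5 abundant genes, while chromosome I had 3 expressed of 21 and no abundant gene. Chromosome II had 11 expressed of 28, with 2 abundant, and chromosome X 10 of 28, with 5 abundant. An annotated gene overlapped 35 of the 70 expressed members, mostly on the other strand, and whether reads were counted by strand is not given in the sources used here. Reads may also be shared between collagens of similar sequence, so values of low members beside abundant relatives are uncertain; col-159, at a mean of 20.2 FPKM, lies over col-160, at 583 FPKM, on the same strand.

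The median spread between libraries was larger in collagens than over all tested genes in the same wide range of means. The residual SD within groups, on the scale of log2(FPKM + 1), had a median of 0.0927 in abundant members, against 0.0523 in the 1622 tested genes with means of at least 100 FPKM. In intermediate members it was 0.214, against 0.0771 in 6226 genes, and in low members 0.309, against 0.198 in 5001 genes. The coefficient of variation over all 9 libraries had medians of 5.95%, 15.3% and 46.5% in abundant, intermediate and low members. The steadiest were the abundant col-106, col-181 and col-184 (residual SD 0.0268, 0.0337 and 0.0357). The least steady were the low genes col-125, col-77, col-107, col-130, col-97 and col-167 (0.833 to 1.14). Levels were not matched within each range, and wide spread was not confined to collagens. In the 4 tested cuticlins, non-collagen proteins of the cuticle, the SE of the log2 difference between GO and control was 0.269 to 0.532. In the expressed members it was 0.029 to 0.786.

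**Figure D2:**
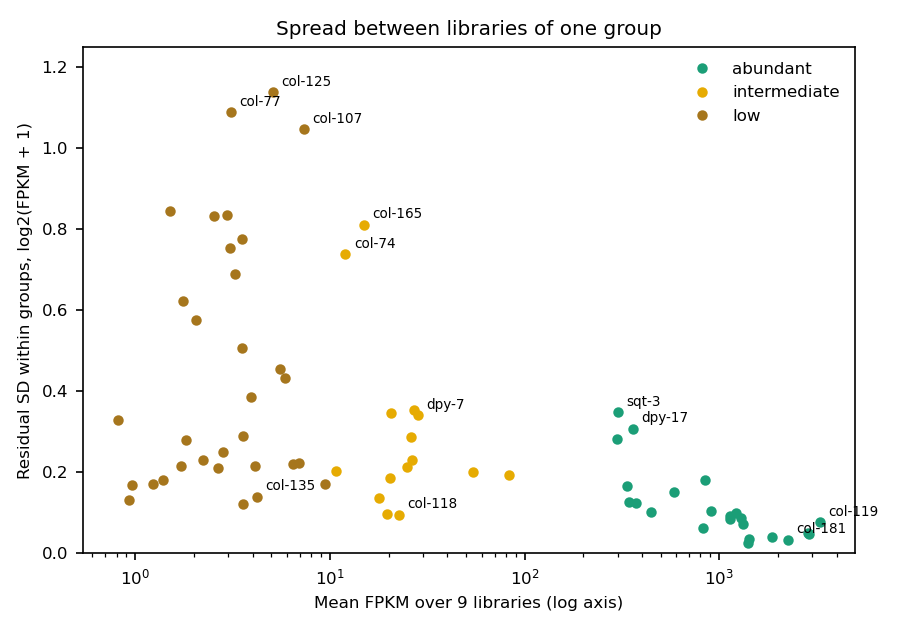
Residual SD within groups of log2(FPKM + 1) against mean FPKM over 9 libraries (log axis), with 1 point per expressed cuticle collagen gene coloured by level class. Most abundant genes lie under 0.2, with dpy-17, sqt-3 and col-95 above, and the low genes range from 0.123 to 1.14.

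With GO, no collagen gene differed from control past the threshold. In limma's moderated test, 0 of 70 expressed members had an adjusted p under 0.05, against 1.26% of the 12849 genes tested. At an unadjusted p under 0.05 there were 9 members lower and 0 higher, where 1.53% of all genes were lower and 6.2% higher. Of the 70 log2 differences (GO minus control) 59 were below 0, against 38.4% of all genes. Their median was −0.11, against 0.024 over all genes, and it was −0.079 in abundant, −0.18 in intermediate and −0.36 in low members. All members were read in the same libraries, so the 70 signs are not separate observations. The median deviation of members from their own log2 means was −0.098, −0.082 and 0.014 in GO replicates 1 to 3. In control replicates 1 to 3 it was 0.085, 0.200 and 0.0051, so control replicate 3 lay below GO replicate 3.

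The smallest p belonged to the abundant col-181 (chromosome X, 12104930 to 12106102). It had 2120, 2133 and 2264 FPKM with GO and 2366, 2327 and 2392 FPKM in controls. All 3 GO libraries lay below the controls, and the log2 difference was −0.12 ± 0.034 (SE; adjusted p = 0.244). The abundant col-184 and col-106 also had GO libraries that did not overlap the controls. For col-184 (chromosome X, 13469455 to 13470409) the values were 1343, 1378 and 1430 FPKM with GO and 1475, 1480 and 1511 FPKM in controls, a log2 difference of −0.11 (adjusted p = 0.349). For col-106 (chromosome IV, 1459896 to 1460786) they were 1366, 1367 and 1407 FPKM with GO and 1460, 1418 and 1492 FPKM in controls, a log2 difference of −0.078 (adjusted p = 0.502). Group means of col-181 were 2172 ± 79.2 FPKM with GO and 2362 ± 32.4 FPKM in controls (SD, n = 3 each), so the differences of the steadiest members were small beside their level.

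Low members gave larger differences with wider errors. The gene col-10 (chromosome V, 9164292 to 9165307) had 3.73, 3.06 and 4.29 FPKM with GO and 14.2, 10.03 and 4.73 FPKM in controls, a log2 difference of −1.08 ± 0.321 (SE; adjusted p = 0.295). The groups did not overlap, but control replicate 3 lay near the GO libraries. For col-39 (chromosome II, 10704916 to 10706019) the values were 2.88, 3.20 and 3.73 FPKM with GO and 6.13, 6.27 and 3.87 FPKM in controls, a log2 difference of −0.57 (adjusted p = 0.279). For col-113 (chromosome IV, 7150663 to 7152509) they were 1.31, 1.62 and 0.907 FPKM with GO and 3.94, 2.504 and 2.10 FPKM in controls, a log2 difference of −0.74 (adjusted p = 0.270). Across the 70 members, GO libraries lay wholly below the controls in 8 (background 3.12%) and wholly above them in 1, the low gene col-111 (background 9.0%).

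With GONH2, again 0 of 70 members had an adjusted p under 0.05 (limma), against 0.436% of all genes tested. At an unadjusted p under 0.05 there were 16 lower and 0 higher, where 1.92% of all genes were lower and 3.39% higher; 13 of the 16 were low genes. The log2 difference (GONH2 minus control) was below 0 in 66 of 70 members, against 48.1% of all genes. The median was −0.095, against 0.0031 over all genes, with −0.070 in abundant, −0.088 in intermediate and −0.37 in low members. This comparison used the same 3 control libraries as that of GO, so both carry the same deviations of the controls. As with GO, the 70 signs are not separate observations.

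The smallest p with GONH2 was that of col-10, with 2.93, 2.62 and 4.11 FPKM with GONH2 and the control values given above, a log2 difference of −1.24 ± 0.321 (SE; adjusted p = 0.320). The gene col-65 had 0.594, 0.609 and 0.877 FPKM with GONH2 and 10.9, 6.37 and 1.19 FPKM in controls, a log2 difference of −1.77 (adjusted p = 0.484). For col-167 (chromosome X, 6323488 to 6324393) the values were 0.281, 0.316 and 0.942 FPKM with GONH2 and 10.6, 5.91 and 1.06 FPKM in controls, a log2 difference of −1.89 (adjusted p = 0.530). In each of these 3 genes the GONH2 libraries lay below all controls, and control replicate 3 was much nearer to them than the other two. The gene col-113 had 1.03, 1.82 and 1.22 FPKM with GONH2, also below all of its controls given above (log2 difference −0.69; limma, adjusted p = 0.529). Its control replicate 3 lay nearer to GONH2 replicate 2 than to control replicate 2. In col-74 (adjusted p = 0.744) and col-48 (adjusted p = 0.642) control replicate 3 lay within the range of the GONH2 libraries. Of the abundant members, col-181 had 2229, 2281 and 2239 FPKM with GONH2, also below all controls, a log2 difference of −0.07 (adjusted p = 0.984). GONH2 libraries lay wholly below the controls in 10 members (background 3.65%) and wholly above them in 0 (background 5.18%).

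Leaving out control replicate 3 changed these calls. Without it, limma called 4 of 69 expressed members with GO, all lower, against 1.06% of 12790 genes: col-144 (log2 −1.11, adjusted p = 0.00529), col-10 (−1.48, 0.0202), col-39 (−0.76, 0.0377) and col-65 (−1.51, 0.0414). With GONH2 it called 3 members, all lower, against 0.266% of genes: col-144 (−1.14, 0.0114), col-65 (−2.47, 0.0114) and col-10 (−1.63, 0.0301). Leaving out any other single library gave 0 in both comparisons. The gene col-144 (chromosome V, 9159586 to 9160642), on the same chromosome as col-10 with col-145 between them, had 4.73, 4.33 and 4.54 FPKM with GO, 4.33, 4.17 and 4.72 FPKM with GONH2, and 12.1, 9.91 and 3.95 FPKM in controls. Control replicate 3 was thus below every treated library in this gene. In col-65 it was below every GO library, at 1.19 FPKM against 3.18, 2.17 and 1.71 FPKM. With all 9 libraries the adjusted p with GO was 0.650 for col-144 and 0.837 for col-65 (limma). Control replicate 3 was the lowest control in all 4 genes. Leaving it out therefore raises the control mean and narrows its spread, and these calls are not separate evidence of a difference.

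**Figure D3:**
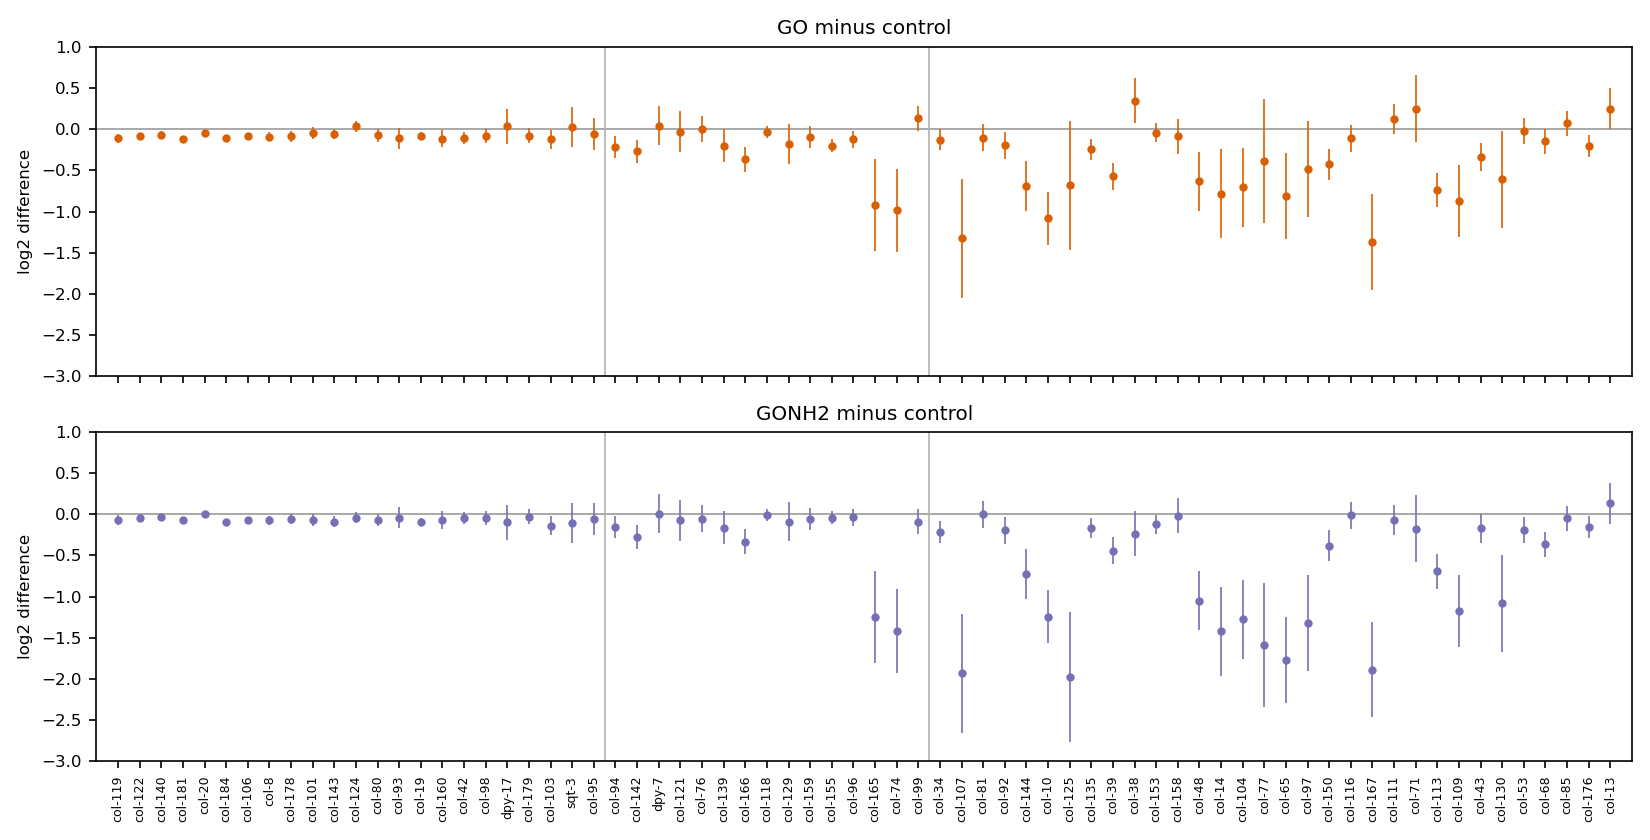
Log2 differences of log2(FPKM + 1) for GO minus control (top) and GONH2 minus control (bottom) in the 70 expressed cuticle collagen genes, in order of mean level, with bars of 1 SE and vertical lines between level classes. Abundant genes lie between −0.14 and 0.04 in both panels, and the low genes reach −1.37 with GO and −1.98 with GONH2 with bars as wide as 0.786.

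Between GONH2 and GO, 0 of 70 members had an adjusted p under 0.05 (limma), against 0.132% of all genes tested, and 0 had an unadjusted p under 0.05 in either direction (background 1.06% higher and 3.6% lower). The log2 difference (GONH2 minus GO) was below 0 in 37 of 70 members, against 62.9% of all genes, with a median of −0.0077, against −0.024 over all genes. For col-119 it was 0.04, with a 95% confidence interval of −0.09 to 0.18, and for col-181 it was 0.05, with an interval of −0.03 to 0.13. The low genes allowed wider differences. The interval reached from −2.16 to 0.23 for col-65, where all GONH2 libraries lay below the GO libraries of 3.18, 2.17 and 1.71 FPKM. For col-155 (chromosome V, 11388852 to 11389876) the values were 18.6, 21.3 and 20.3 FPKM with GONH2 and 17.1, 18.05 and 18.5 FPKM with GO, a log2 difference of 0.16 (limma, adjusted p = 0.9997). These were the only members whose GONH2 and GO libraries did not overlap (background 7.09% lower and 2.93% higher). From the estimate to either bound, the 95% interval measured a median of 0.154 in abundant, 0.346 in intermediate and 0.527 in low members, on the log2 scale.

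Several members shared patterns over the libraries in which libraries of 1 group differed from each other. The patterns were chosen after the values were seen and are given without a test. In the first, control replicate 1 was the highest library, at 3 or more times the median library. It held 21 of the 101 members with at least 1 FPKM anywhere (20.8%), against 106 of 14022 genes (0.756%). Of the 21, 2 were intermediate (col-165 and col-74), 12 were low and 7 were not expressed. Control replicate 2 was second in 18 of them, and a GONH2 library was the lowest in 18. Summed over the 21 genes, the level was 72.2, 47.4 and 45.0 FPKM with GO, 27.1, 21.7 and 47.3 FPKM with GONH2, and 241, 131.4 and 35.7 FPKM in controls. Control replicate 3 lay below every GO library and within the range of the GONH2 libraries.

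As an example, col-107 (chromosome IV, 1548721 to 1549714) had 5.21, 4.09 and 2.40 FPKM with GO, 1.23, 1.49 and 4.44 FPKM with GONH2, and 30.04, 14.6 and 2.48 FPKM in controls. The gene col-165 (chromosome X, 4353618 to 4354852) had 8.61, 12.2 and 10.4 FPKM with GO, 7.64, 5.25 and 12.7 FPKM with GONH2, and 44.7, 25.2 and 7.19 FPKM in controls. In both genes control replicate 3 lay within the range of the treated libraries. The 6 least steady members named above all belonged to this pattern. Both the rule and the residual SD draw on the value of control replicate 1, so this overlap is not separate evidence. The 4 pharynx markers, none of them at 0, summed to 24.6 to 25.4 FPKM with GO, 24.3 to 27.4 FPKM with GONH2, and 42.0, 33.3 and 26.0 FPKM in controls. The high sum of control replicate 1 came mostly from abu-14, which met the same rule. Both myo-1 and myo-2 were also higher in every control than in every GO library. Mean levels with GO and in controls were 8.92 and 10.96 FPKM for myo-1, and 10.18 and 12.62 FPKM for myo-2. Neither passed the threshold (limma, adjusted p = 0.200 for myo-1 and 0.302 for myo-2). The gene pqn-8 went the other way, with 1.71, 1.68 and 2.07 FPKM with GO and 1.65, 1.47 and 1.33 FPKM in controls. The part of the pharynx markers in the collagen pattern was not tested.

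A second pattern belonged to GO replicate 1 alone. There, 17 of 101 members (16.8%) were at 3 or more times the next library, against 75 of 14022 genes (0.535%). In any other library at most 1 member met the same rule. Of the 17, col-71 was a low expressed gene and the other 16 did not count as expressed. Their sum was 64.2 FPKM in GO replicate 1 and 2.42 to 4.50 FPKM in the other 8 libraries. The gene col-73 (chromosome II, 4872098 to 4873129) had 6.92 FPKM in GO replicate 1 and at most 0.154 FPKM elsewhere. The gene col-175 had 4.22 FPKM there and was listed at 0 in 7 of the other 8 libraries. The members linked to the L4 larva, col-38, col-49, col-63 and col-138, summed to 19.2 FPKM in GO replicate 1 and 2.81 to 4.38 FPKM in the other libraries. In the same library 16 of the 23 abundant members had their lowest value. The share of all genes with their lowest value there was not counted, so this is not read as a trait of collagens. Leaving out control replicate 1 and GO replicate 1 together, an alternative added after the data were seen, gave 0 members called in all 3 comparisons, with medians of −0.12 for GO, −0.14 for GONH2 and −0.047 for GONH2 minus GO.

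In another pattern the 3 highest libraries were GO replicate 2, GONH2 replicate 3 and control replicate 1, that is 1 library of each group. It held 6 of the 101 members (5.94%), against 409 of 14022 genes (2.92%): dpy-17, sqt-3, dpy-7, col-121, col-76 and col-99. The gene dpy-17 (chromosome III, 5107330 to 5108492) had 331, 417 and 366 FPKM with GO, 272, 317 and 445 FPKM with GONH2, and 461, 363 and 281 FPKM in controls. Values for sqt-3 (chromosome V, 12352745 to 12354320) were 277, 346 and 301 FPKM with GO, 220, 255 and 389 FPKM with GONH2, and 400, 296 and 230 FPKM in controls. For dpy-7 (chromosome X, 7536467 to 7537792) they were 25.5, 33.4 and 26.2 FPKM with GO, 22.2, 24.3 and 37.95 FPKM with GONH2, and 36.95, 25.5 and 21.5 FPKM in controls. The groups overlapped in all 3 genes, with log2 differences from control between −0.11 and 0.04. Of 13 other cuticle collagens, 4 had the same 3 highest libraries (dpy-2, dpy-3, dpy-10 and dpy-14), the first 3 of which are furrow collagens like dpy-7. The furrow collagens dpy-8 (mean 0.241 FPKM) and dpy-9 (mean 1.15 FPKM) of that list did not. In dpy-9 the highest library was control replicate 2, at 1.86 FPKM, and the lowest GONH2 replicate 3, at 0.754 FPKM. Of 17 molting genes, 7 had the same 3 highest libraries, among them noah-1 and noah-2, which encode proteins of the apical matrix. The pattern took in 399 protein-coding genes, of which 389 were neither members nor among the other cuticle collagens listed, so it was not particular to collagens.

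**Figure D4:**
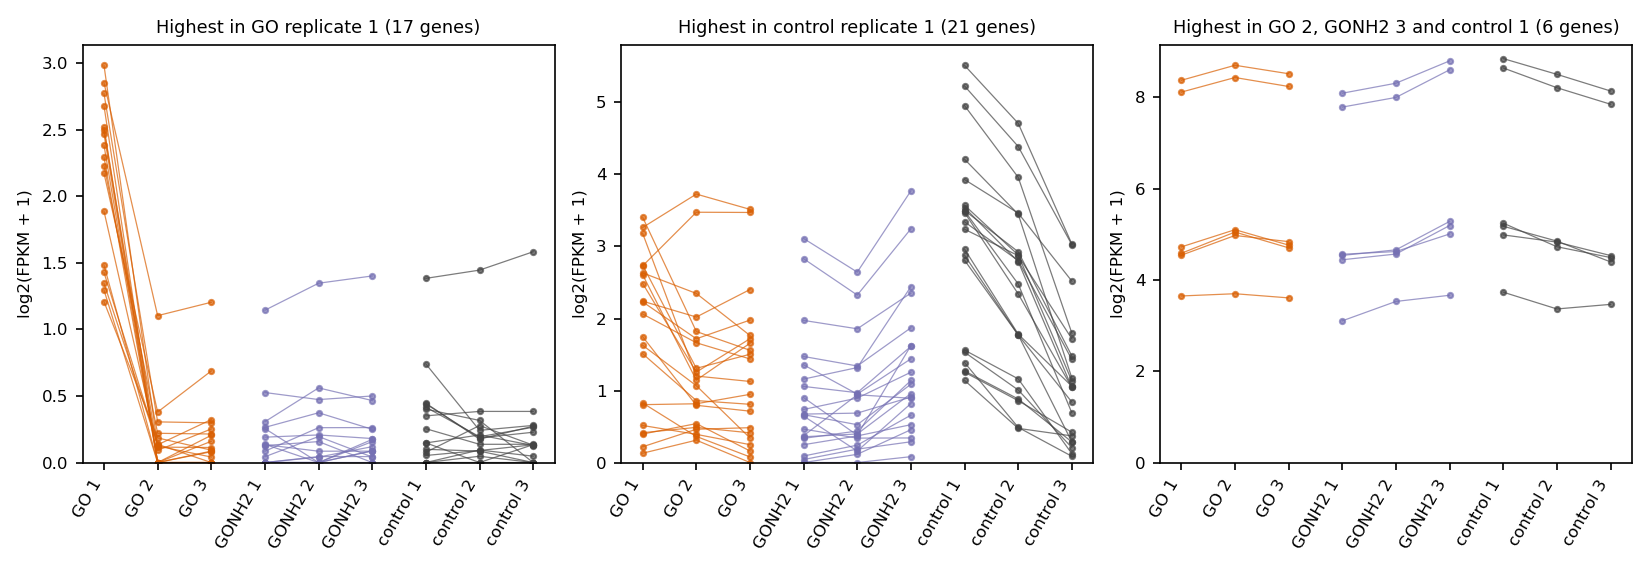
Log2(FPKM + 1) in each of the 9 libraries for the 17 genes highest in GO replicate 1 (left), the 21 genes highest in control replicate 1 (middle) and the 6 genes whose highest libraries were GO 2, GONH2 3 and control 1 (right), with lines joining the libraries of a group. The genes were chosen by these values. In the middle panel, control libraries run from the highest to among the lowest.

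Some neighbouring collagen genes differed greatly in level. Counting only members next to each other in the order of members along a chromosome, 32 pairs lay within 10000 bases. Those given here are examples, and other pairs were alike in level, such as col-50 and col-51, neither of them expressed. How often members that are not neighbours differ as much was not counted, so this is not read as a trait of neighbours. On chromosome II the abundant col-20, at a mean of 1874 FPKM, stood between col-17 at 0.0713 FPKM and col-73 at 0.844 FPKM. Further along, col-80 at 910 FPKM stood between col-39 at 4.12 FPKM and bli-1 at 0.0741 FPKM. On chromosome III, col-93 at 845 FPKM lay between col-92 at 6.42 FPKM and col-94 at 82.6 FPKM. On chromosome X, col-178 and col-179 were both abundant, at 1298 and 343 FPKM, with 998 bases between them, while col-184 at 1424 FPKM lay beside col-183 at 0.0646 FPKM. The members col-167 to col-171 lay in a row on chromosome X in 1 orientation, with means of 2.54, 0.531, 0.476 and 0.0600 FPKM, and col-171 was listed at 0.

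**Figure D5:**
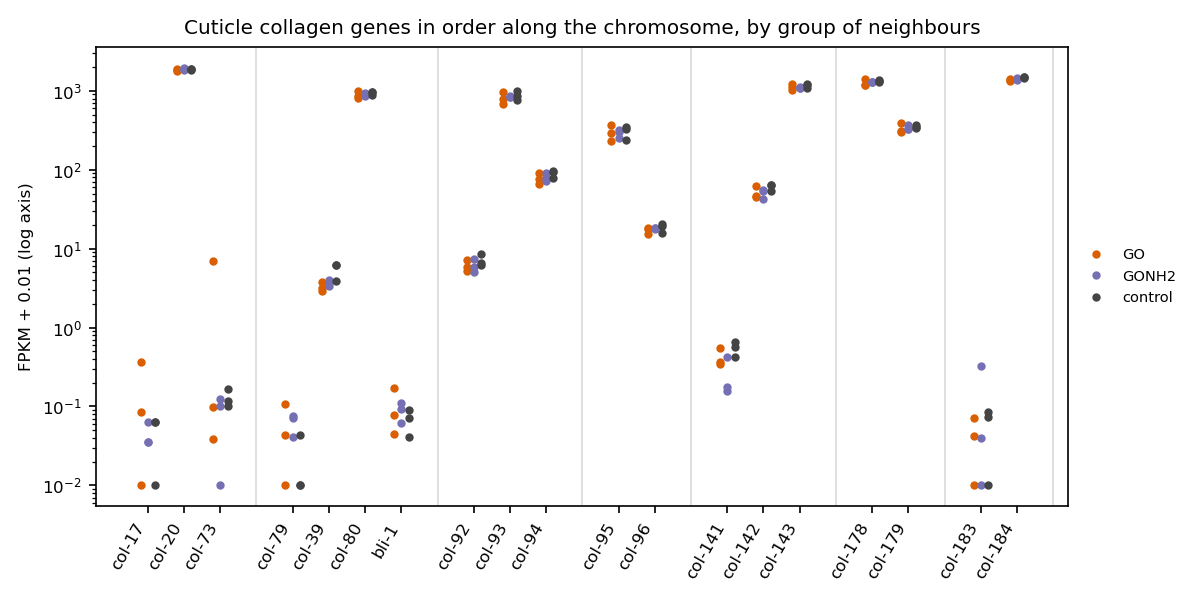
FPKM + 0.01 on a log axis of neighbouring cuticle collagen genes in their order along the chromosome, with 1 point per library (GO left, GONH2 middle, control right) and lines between groups of neighbours. Levels of adjacent genes differ by orders of magnitude in several groups of neighbours, as for col-17 at a mean of 0.0713 FPKM beside col-20 at 1874 FPKM. In col-73, which did not count as expressed, GO replicate 1 stands apart.

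Genes that fold, process or organise collagens were read beside the members. In all 8 lists 0 genes passed the threshold in any of the 3 comparisons (limma, adjusted over all genes tested). Of 15 genes for folding, processing and cross-linking, 13 were tested, and their median log2 difference from control was 0.033 with GO and 0.015 with GONH2. The smallest p with GO was that of dpy-11, a thioredoxin-like enzyme of the hypodermis (log2 0.08, adjusted p = 0.743). The disulfide isomerase subunit pdi-2 had 714, 808 and 795 FPKM with GO, 653, 759 and 816 FPKM with GONH2, and 766, 696 and 714 FPKM in controls, and the groups overlapped. Medians with GO and with GONH2 were 0.068 and −0.090 in the 6 tested genes of 13 other cuticle collagens, 0.039 and −0.014 in 16 of 17 molting genes, and 0.017 and −0.075 in 5 collagens or collagen enzymes of basement membranes and other matrices. In the last list cle-1, a collagen of the type XV and XVIII kind, had the smallest p with GONH2 (log2 0.15, adjusted p = 0.613).

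Transcription factors of the hypodermis and of the molting clock had medians of −0.017 with GO and −0.014 with GONH2 over 12 genes; elt-3, a GATA factor of the hypodermis, had the smallest p with GO (log2 0.17, adjusted p = 0.645). The 12 genes of the DBL-1 body size pathway, a BMP signal that acts on collagen genes, had medians of 0.099 with GO and 0.028 with GONH2. The 10 genes known to respond when furrow collagens are lost, which include antimicrobial peptides and the glycerol enzyme gpdh-1, had medians of 0.027 with GO and 0.049 with GONH2. The cuticlins, non-collagen proteins of the cuticle, had lower medians, −0.40 with GO and −0.66 with GONH2 over 4 tested genes. Of these cut-2 had 20.4, 29.9 and 20.8 FPKM with GO, 15.3, 12.0 and 27.3 FPKM with GONH2, and 77.9, 42.3 and 14.8 FPKM in controls, with control replicate 3 within the range of the treated libraries, as in the collagens highest in control replicate 1.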

How the data were processed

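RNA of 500 animals per sample was sequenced paired-end from stranded TruSeq libraries on a HiSeq, per the labels' protocols. The deposited values are FPKM per WormBase gene ID, as the authors made them. Aligner, counting program, annotation and genome build were not given in the sources used here. The submitters' processing notes list DESeq2 with no role; it was not run here. Ensembl release 115 (WBcel235) supplied symbols and positions and gave a symbol to 43325 of the 46284 IDs. Since read totals cannot be had from FPKM, the depth is unknown, and no counting interval or floor is given. The labels name no batch.

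Members and lists were chosen with earlier results of these data known. Genes with at least 1 FPKM in 3 of 9 libraries were tested as log2(FPKM + 1), a scale that understates changes of low genes, with limma 3.58.1 in R 4.3.3. The model held only the group, and variances were moderated towards their trend with mean level (2.47 prior and 6 residual degrees of freedom). Benjamini-Hochberg adjustment ran over all 12849 genes, and 0.05 was the threshold. Abundant meant a mean of at least 100 FPKM and low a mean under 10 FPKM. The named members were those with the smallest p in each comparison (6 each), the 15 highest means, the largest residual SDs (6), the 8 members not named col, stage-linked members and those at the edge of the filter, and up to 3 genes of each list; others were chosen after their values were seen. The fit was tested on simulated data. Alternatives covered the pseudocount (0.1 and 0.5), the filter (5 FPKM or none), scaling, trend, array weights, 6 libraries only, a replicate block and each library left out. Protein similarity and sequences were not used here. Plots used matplotlib 3.10.9 and Python 3.11.15.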

Additional observations from a re-analysis of the deposited data

How the results depend on the processing

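The number of members called ranged from 0 to 4 for GO versus control, from 0 to 3 for GONH2 versus control and from 0 to 0 for GONH2 versus GO when each library was left out in turn, and the calls came without control replicate 3. Besides those, no member was called under other pseudocounts, filters, scalings, trend settings, array weights or fits to 6 libraries. The number of low members was 6 with a filter of 5 FPKM and 120 with no filter, against 32. Groups shared replicate numbers, but same-numbered libraries did not deviate together (Pearson's r of deviations across genes, −0.168 to 0.131), and not every library correlated best with its own number. With the replicate number as a block 0 members were called in each comparison, and all-gene calls were 137, 29 and 8, against 162, 56 and 17. Without read totals, values of members near 1 FPKM rest on an unknown number of fragments.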

Other observations

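Outside the members, the GO replicate 1 pattern took in 30 protein-coding genes in all, which were the 17 members, the cuticle collagens dpy-4, dpy-5 and rol-1, and 10 others. In GO replicate 1 dpy-4 had 4.92 FPKM, dpy-5 had 4.96 FPKM and rol-1 had 3.21 FPKM, against at most 0.65 FPKM for any of them in the other 8 libraries. DPY-5 is needed for normal body length, and ROL-1 for a straight body axis.

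The control replicate 1 pattern took in 94 protein-coding genes, 21 of them members and 73 others. Among the others was cut-3, a cuticlin, with 5.87, 9.33 and 8.94 FPKM with GO, 6.42, 3.93 and 9.58 FPKM with GONH2, and 29.3, 19.4 and 5.97 FPKM in controls. The pharyngeal gene abu-14 had 4.26, 4.40 and 3.92 FPKM with GO, 2.19, 2.24 and 5.06 FPKM with GONH2, and 14.6, 8.27 and 3.35 FPKM in controls. These genes were chosen after their values were seen.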
